A study of Mus musculus with 6 samples.

Results

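The CCN genes encode secreted matricellular proteins, which sit in the extracellular matrix and act on cells rather than bearing load. The 5 genes Ccn1 (Cyr61), Ccn2 (Ctgf), Ccn3 (Nov), Ccn4 (Wisp1) and Ccn5 (Wisp2) were followed through mouse skin that had received a cytokine from a subcutaneous pump for 7 days. Members were the probe sets whose platform annotation names one of these genes and no other. This gave 8 of 22690 probe sets, or 5 of the 12393 genes named by the table, with 2 probe sets each for Ccn1, Ccn3 and Ccn4 and 1 each for Ccn2 and Ccn5. The family was proposed with its signals on all 6 arrays already known, that is, it was chosen by the values described here, so every value of a CCN gene is a description without a test.

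All mice were C57BL/6, and no source used here gives their ages. Total RNA was hybridised to 6 single-colour Affymetrix arrays. PBS, the vehicle, was given to the controls, and skin was taken either where the pump opened (PBS local) or from the abdomen, away from that opening (PBS distal). The other pieces came from the pump opening under IL-13, a type 2 cytokine, TSLP, an epithelial cytokine, or TGF-beta, which regulates matrix production. TGF-beta had 2 arrays, labelled mouse 1 and mouse 2, and every other group had 1. The labels do not say whether PBS local and PBS distal skin came from the same mouse, nor give a cytokine dose. With so few arrays precision is limited, and a group with 1 array has no error and no replicate check. P-values measure only the spread between the 2 TGF-beta mice.

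CCN proteins are built from shared cysteine-rich modules and bind integrins, heparan sulphate proteoglycans and growth factors, through which they alter adhesion, migration and matrix turnover. Ccn1 and Ccn2 are known as immediate early genes and as targets of YAP and TEAD, the effectors of the Hippo pathway, and Ccn2 is also a classical TGF-beta target in fibroblasts. Ccn4 was first described as a Wnt-induced gene, Ccn3 is often described as an antagonist of Ccn2, and Ccn5 lacks the C-terminal module of the others.

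The stretches of RefSeq sequence below show where the TEAD recognition letters lie in the start regions of Ccn1, a member, and Ankrd1, a YAP target that differed most from PBS local skin among the YAP target genes described further on. Of the 5 members, 1 matched the RefSeq promoter table of the build GRCm38.p6. Each stretch runs 5′ to 3′ from 250 bases before the gene's start to 50 bases after it. The Ccn1 stretch lies at chr3:145649936-145650235 and the Ankrd1 stretch at chr19:36119795-36120094, both on the minus strand. Capitals mark matches to the motifs named after the sequences.
Ccn1: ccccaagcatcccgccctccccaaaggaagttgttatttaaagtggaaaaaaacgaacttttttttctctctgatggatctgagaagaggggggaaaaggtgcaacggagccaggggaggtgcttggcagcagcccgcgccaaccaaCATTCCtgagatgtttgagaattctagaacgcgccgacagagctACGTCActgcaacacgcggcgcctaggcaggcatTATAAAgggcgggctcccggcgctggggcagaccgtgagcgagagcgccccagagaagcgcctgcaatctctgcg
Ankrd1: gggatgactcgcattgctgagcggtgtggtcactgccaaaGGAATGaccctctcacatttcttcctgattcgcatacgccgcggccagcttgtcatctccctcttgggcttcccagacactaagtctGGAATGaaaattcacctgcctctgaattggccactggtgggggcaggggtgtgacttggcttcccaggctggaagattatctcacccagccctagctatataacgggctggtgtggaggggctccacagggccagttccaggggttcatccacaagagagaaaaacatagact

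Both strands were searched for the TEAD letters GGAATG, the AP-1 letters TGANTCA, the cyclic AMP response half-site TGACGT, the SRF CArG box and the TATA letters TATAAA. In Ccn1 the TEAD letters were found 1 time, read on the opposite strand as CATTCC, beginning 103 bases upstream of the start. The half-site followed at 59 bases upstream, also on the opposite strand, and TATAAA at 25 bases upstream, and no 2 matches overlapped. Ankrd1 held the TEAD letters 2 times, beginning 210 and 123 bases upstream. Of 32851 promoter stretches of the same length, 14.7% held the TEAD letters, 7.81% the AP-1 letters, 7.51% the half-site, 1.63% a CArG box and 13.6% TATAAA. A match describes the letters and is not a binding site.

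The signals are MAS5 intensities, 1 linear value per probe set and array, and differences are on the scale log2(signal + 27.4), which understates the change of dim genes. A difference of 1 is the 2-fold mark used below, and for TGF-beta it had to be met in the same direction in both mice. Genes below 165, the median of all values, on every array compared were left out. Before any CCN value, some arrays stood apart in tissue markers. These marker counts and sums cover all list genes with a probe set, without that filter. Of 7 hair follicle genes, 6 were at least 2-fold higher in mouse 2 of TGF-beta than in PBS local skin, with a summed signal of 35732 against 102, 6 were so under IL-13, with 2109, and 4 in PBS distal, with 1185. In PBS distal skin all 8 regenerating muscle genes lay at least 2-fold under PBS local, with a summed signal of 597 against 5120, as did 7 of 8 neutrophil genes, with 877 against 4747. With the filter, 6 regenerating muscle and 5 neutrophil genes entered this comparison, all of them at least 2-fold lower. All 10 exocrine pancreas genes of a list chosen after values were seen were at least 2-fold higher under both IL-13 and TSLP, with summed signals of 16806 and 14278 against 4994. In TGF-beta mouse 1, 9 of them were at least 2-fold lower, with 2057, in mouse 2, 8 were at least 2-fold higher, with 11792, and all 10 were lower in PBS distal, with 906. The part of these genes in the CCN values was not tested. Epidermal keratinocyte markers were bright on every array, with all 7 above the filter throughout. No marker in these lists was at 0.

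**Figure D1:**
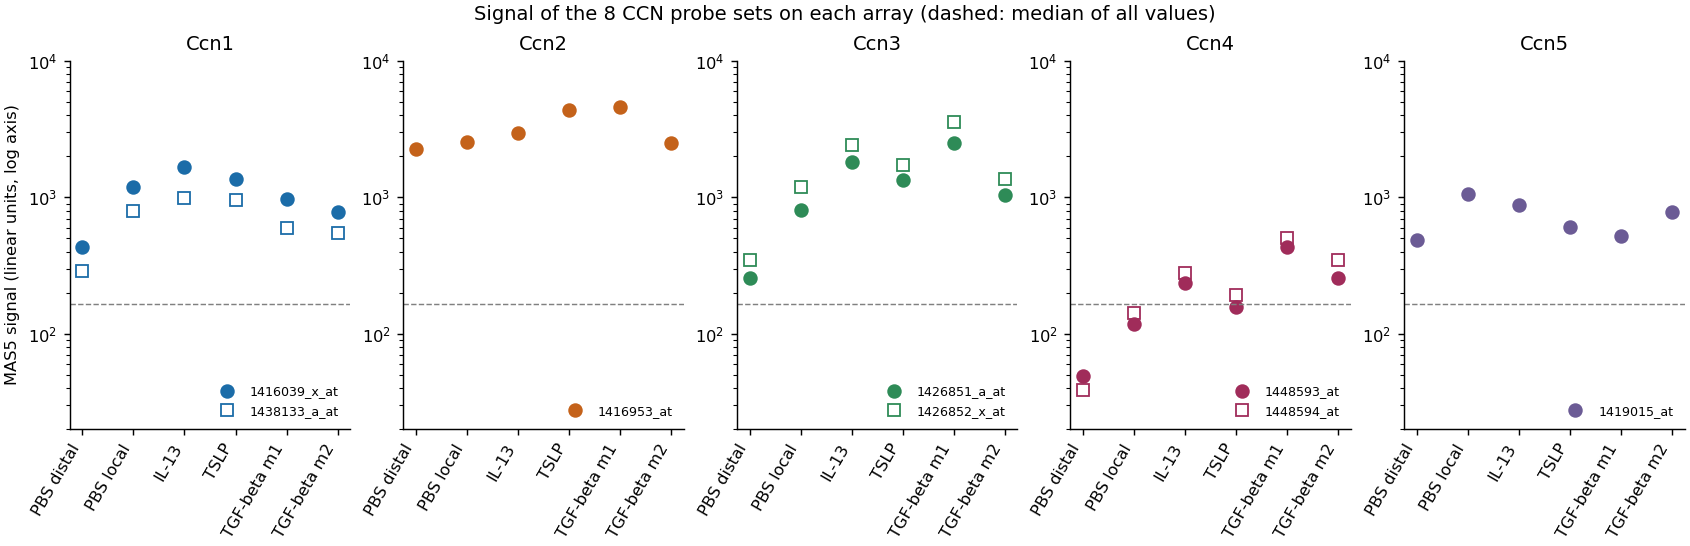
MAS5 signal (linear units on a log axis) of each CCN probe set on each of the 6 arrays, with filled circles and open squares for the probe sets of a gene and a dashed line at the median of all values, 165. All 8 probe sets are lowest in PBS distal skin, Ccn3 and Ccn4 are highest in TGF-beta mouse 1 (m1), and Ccn5 is highest in PBS local skin.

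Ccn4, the member first described as Wnt-induced, was the 1 CCN gene at least 2-fold above PBS local skin in both TGF-beta mice. Its signal on 1448594_at was 38.4 in PBS distal, 143 in PBS local, 193 under TSLP, 278 under IL-13, 347 in TGF-beta mouse 2 and 504 in mouse 1. Both TGF-beta arrays lay above all others, as they did for 6.07% of the 7945 genes above the filter on any array, and all arrays with a cytokine lay above both PBS arrays. The signal in mouse 1 was 3.54 times and in mouse 2 2.44 times that of PBS local skin. On the log2 scale TGF-beta stood at 1.39 ± 0.36 (SD, n = 2 mice) above PBS local, IL-13 at 0.85 and TSLP at 0.37. On this probe set each step in the order TGF-beta, IL-13, TSLP, PBS local, PBS distal was larger than the SD of the TGF-beta pair, the one spread there is. Here and below, that SD rests on 2 mice, and a difference between single arrays varies more than 1 array does. A step larger than the SD therefore does not settle the order.

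The other Ccn4 probe set, 1448593_at, gave the same order of arrays, with signals of 48.7, 118, 157, 235, 256 and 429. It put mouse 1 at 1.65 and mouse 2 at 0.97, so on this probe set mouse 2 was just short of the 2-fold mark. The SD of the pair was 0.49 here, and the steps from TGF-beta to IL-13 and from TSLP (0.35) to PBS local were smaller than it. Ccn4 is a dim gene here. The brighter probe set reached the median of all values on 4 arrays and the other on 3, and neither PBS array did so on either. Among 7741 genes, 14 (0.181%) passed the 2-fold mark upward in both TGF-beta mice and 12 (0.155%) downward. By its mean difference Ccn4 ranked 56th from the highest, and 0.711% of genes lay above it. Its place past the mark depends on the offset, since at 4 times the offset mouse 2 stood at 0.86 and mouse 1 at 1.28. It also depends on the filter, as Ccn4 would not enter if PBS local had to reach 165.

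Ccn3 followed an order of arrays like that of Ccn4 but parted the TGF-beta mice widely. On 1426852_x_at its signal was 346 in PBS distal, 1183 in PBS local, 1359 in TGF-beta mouse 2, 1738 under TSLP, 2417 under IL-13 and 3572 in mouse 1. Mouse 1 was the highest array and mouse 2 lay below both other cytokines. Against PBS local the difference was 1.57 in mouse 1 and 0.20 in mouse 2, a mean of 0.88 ± 0.97 (SD, n = 2 mice). The gap of 1.38 between the mice was exceeded by 1.40% of the 7741 genes, whose median gap was 0.17. Ccn3 was thus past 2-fold in mouse 1 alone, where 27 genes (0.349%) lay so far above PBS local and 47 (0.607%) so far below. In mouse 2 the numbers were 143 (1.85%) and 112 (1.45%). The mice were at least 2-fold apart for 2.45% of genes, Ccn3 among them.

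Under IL-13 Ccn3 passed the 2-fold mark on the higher side. Its difference from PBS local was 1.01, and 1.14 on the other probe set, 1426851_a_at. At 4 times the offset these were 0.97 and 1.07, so the first no longer passed. Of 7562 genes, 85 (1.12%) passed the mark upward under IL-13 and 31 (0.41%) downward. Under TSLP Ccn3 stood at 0.54 on the first probe set and 0.73 on the second. The second probe set had signals of 258 in PBS distal, 805 in PBS local, 1041 in mouse 2, 1352 under TSLP, 1811 under IL-13 and 2486 in mouse 1, the order being that of the first. Of the steps between groups, the one from PBS local down to PBS distal exceeded the SD of the TGF-beta pair for Ccn3, and the others did not.

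Ccn1, an immediate early gene whose protein binds integrins, was the member that stood lower under TGF-beta and higher under IL-13. Its signal on 1416039_x_at was 434 in PBS distal, 775 in TGF-beta mouse 2, 966 in mouse 1, 1195 in PBS local, 1365 under TSLP and 1682 under IL-13. Both TGF-beta arrays lay below the other 3 arrays from the pump opening and above the distal one. The difference from PBS local was -0.30 in mouse 1 and -0.61 in mouse 2, a mean of -0.45 ± 0.22 (SD, n = 2 mice), which is within 2-fold. IL-13 stood at 0.48 and TSLP at 0.19, the latter step being smaller than the SD of the TGF-beta pair. Ccn1 was highest under IL-13, as were 9.05% of genes.

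The second Ccn1 probe set, 1438133_a_at, had signals of 288, 552, 593, 800, 954 and 993 in the same order of arrays. Its differences were -0.42 and -0.51 in the TGF-beta mice, 0.30 under IL-13 and 0.25 under TSLP. Here the SD of the pair was 0.07, the step from PBS local to TSLP exceeded it and the step from TSLP to IL-13 did not, the reverse of the first probe set. Both probe sets thus placed the TGF-beta arrays under PBS local. Of 7945 genes above the filter on any array, 12% had both TGF-beta arrays below the other 3 arrays from the pump opening, so this placing is a common one. The suffixes of the probe set names matter here, since x_at marks probes that can also bind other transcripts and a_at probes shared by variants of 1 gene.

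Ccn2, the family member best known as a TGF-beta target and fibrosis gene, had the narrowest range of the 5, 2.03-fold between its highest and lowest array, beside 2.17-fold for Ccn5. Its signal on 1416953_at was 2255 in PBS distal, 2494 in TGF-beta mouse 2, 2558 in PBS local, 2978 under IL-13, 4407 under TSLP and 4568 in mouse 1. TSLP and mouse 1 were high together, and the other 4 arrays lay close together. The difference from PBS local was 0.83 in mouse 1 and -0.04 in mouse 2, a mean of 0.40 ± 0.61 (SD, n = 2 mice). TSLP stood at 0.78, IL-13 at 0.22 and PBS distal at -0.18. None of the 4 steps between groups exceeded the SD of the TGF-beta pair, and the gap of 0.87 between the mice was exceeded by 3.54% of genes.

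Ccn5, the member without the C-terminal module, was the one whose highest array was PBS local. Its signal on 1419015_at was 487 in PBS distal, 521 in TGF-beta mouse 1, 604 under TSLP, 779 in mouse 2, 887 under IL-13 and 1056 in PBS local. All 4 cytokine arrays lay below PBS local, as they did for 25.3% of the 7945 genes. The differences were -0.98 in mouse 1 and -0.43 in mouse 2, a mean of -0.70 ± 0.39 (SD, n = 2 mice), with TSLP at -0.78 and IL-13 at -0.24. Neither TSLP nor either TGF-beta mouse reached the 2-fold mark, mouse 1 with a signal ratio of 0.494 stopping just short of it once the offset was added. Under TSLP Ccn5 ranked 86th from the lowest of 7614 genes. No member passed the 2-fold mark under TSLP, where 0.998% of genes did so upward and 0.447% downward. The highest array was PBS local for 16.4% of genes, and TGF-beta mouse 1, where Ccn2, Ccn3 and Ccn4 peaked, for 9.91%. All 4 cytokine arrays lay above PBS local for Ccn3 and Ccn4, and for 15.3% of genes.

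**Figure D2:**
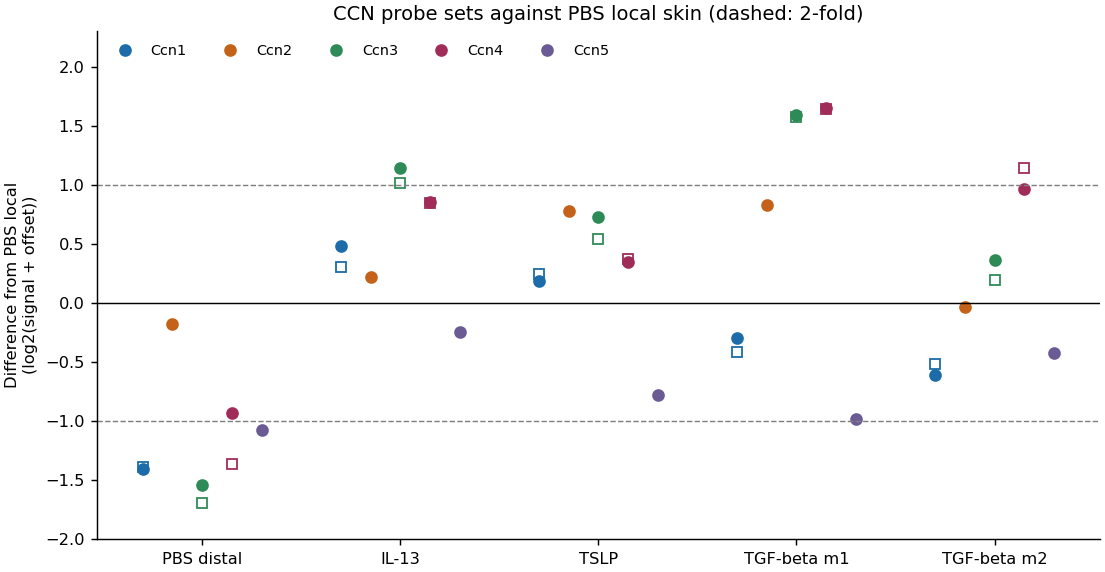
Difference from PBS local skin in log2(signal + 27.4) for each CCN probe set on the other 5 arrays, with filled circles and open squares for the probe sets of a gene and dashed lines at 2-fold. The first probe sets of Ccn3 and Ccn4 lie at 1.57 and 1.64 in TGF-beta mouse 1 (m1), Ccn5 lies below 0 on all 5 arrays, and Ccn1 lies above 0 under IL-13 and TSLP alone.

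Set against PBS distal skin, each member stood higher on every array from the pump opening, with or without a cytokine. The differences ran down to 0.09. All 5 members, on each of their 8 probe sets, had their lowest signal in PBS distal. By 1 probe set a gene, 24.9% of 7945 genes had theirs there. Ccn1 was 2.75 times, Ccn3 3.42 times, Ccn4 3.71 times and Ccn5 2.17 times as high in PBS local as in PBS distal, while Ccn2 was 1.13 times as high. On the second probe sets the ratio was 2.78 for Ccn1, 3.12 for Ccn3 and 2.42 for Ccn4. The 3.71 of Ccn4 thus rests on 1 probe set, with a dim distal signal of 38.4. Of the 4 members that entered this comparison, 3 (Ccn1, Ccn3 and Ccn5) lay at least 2-fold under PBS local, as did 267 of 7617 genes (3.51%), while 60 (0.788%) passed the mark upward. Ccn5, at -1.07, was at -0.97 with 4 times the offset. Ccn4, at -1.37 and at -0.93 on its second probe set, did not enter because neither PBS array reached the filter.

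The cytokine arrays share the distal array when they are set against it, so the values are given side by side. Ccn4 stood above PBS distal by 3.01 in TGF-beta mouse 1, 2.51 in mouse 2, 2.22 under IL-13 and 1.74 under TSLP. Ccn3 stood above it by 3.27, 1.89, 2.71 and 2.24, and Ccn1 by 1.11, 0.80, 1.89 and 1.59, in the same order of arrays. On the first probe sets of Ccn3 and Ccn4, each of the 5 arrays from the pump opening was at least 2-fold above distal skin. By 1 probe set a gene, this held for 1.7% of genes. It held on the second probe set of Ccn3 as well. On that of Ccn4, PBS local stood 0.93 above distal skin, short of the mark. At 4 times the offset distal skin was at -0.77 against PBS local on the first Ccn4 probe set, also short of it. Ccn5 stood above distal skin by 0.09, 0.65, 0.83 and 0.30, so it was near the distal level in TGF-beta mouse 1. For Ccn2 the values were 1.01, 0.14, 0.40 and 0.96, so it was near the distal level in mouse 2. These differences mix body site, pump and cytokine, which cannot be told apart.

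Cell type marker lists, again taken without the filter, differed between distal and PBS local skin in both directions. All 8 endothelial markers were lowest in PBS distal skin, with a summed signal of 2079 there and 2976 to 5363 on the other arrays, and 3 of them were at least 2-fold lower than in PBS local. Of 9 fibroblast markers none was 2-fold lower, the median difference was -0.59, and the summed signal was 60944 in distal skin and 61039 to 89091 elsewhere. Of 8 smooth muscle and pericyte markers 2 were at least 2-fold lower, with a summed signal of 13013 against 17493 to 25678. Macrophage markers were lowest in distal skin for 7 of 8 genes, with a summed signal of 37128 against 45518 to 53929. Other lists had higher sums in distal skin, with 60780 against 47257 for keratinocyte, 21914 against 16975 for adipocyte and 100701 against 81479 for mature muscle markers. In that order, 1 of 7, 0 of 6 and 1 of 8 genes were at least 2-fold higher, with median differences of 0.36, 0.45 and 0.19. The 1 muscle gene was Myh4, at 2.78, while Mb was at -0.63 and Mylpf at -0.03. In bulk skin, fewer cells of a type and less RNA per cell cannot be told apart. The part of these markers, and of the regenerating muscle, neutrophil, hair follicle and pancreas genes above, in the CCN values was not tested.

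Between TGF-beta and the other cytokines, Ccn4 and Ccn1 lay on opposite sides. On 1448594_at Ccn4 was higher than under IL-13 by 0.80 in mouse 1 and 0.29 in mouse 2, and higher than under TSLP by 1.27 and 0.77. On 1448593_at these values were 0.80 and 0.11, and 1.30 and 0.62. The 0.11 is smaller than the SD of the TGF-beta pair on that probe set, 0.49. On 1416039_x_at Ccn1 differed from IL-13 by -0.78 in mouse 1 and -1.09 in mouse 2, and from TSLP by -0.49 and -0.80. On 1438133_a_at these values were -0.72 and -0.82, and -0.66 and -0.76. For both genes both mice lay on the same side of both other cytokines. Ccn3 did not keep a side, with 0.56 in mouse 1 and -0.82 in mouse 2 against IL-13.

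**Figure D3:**
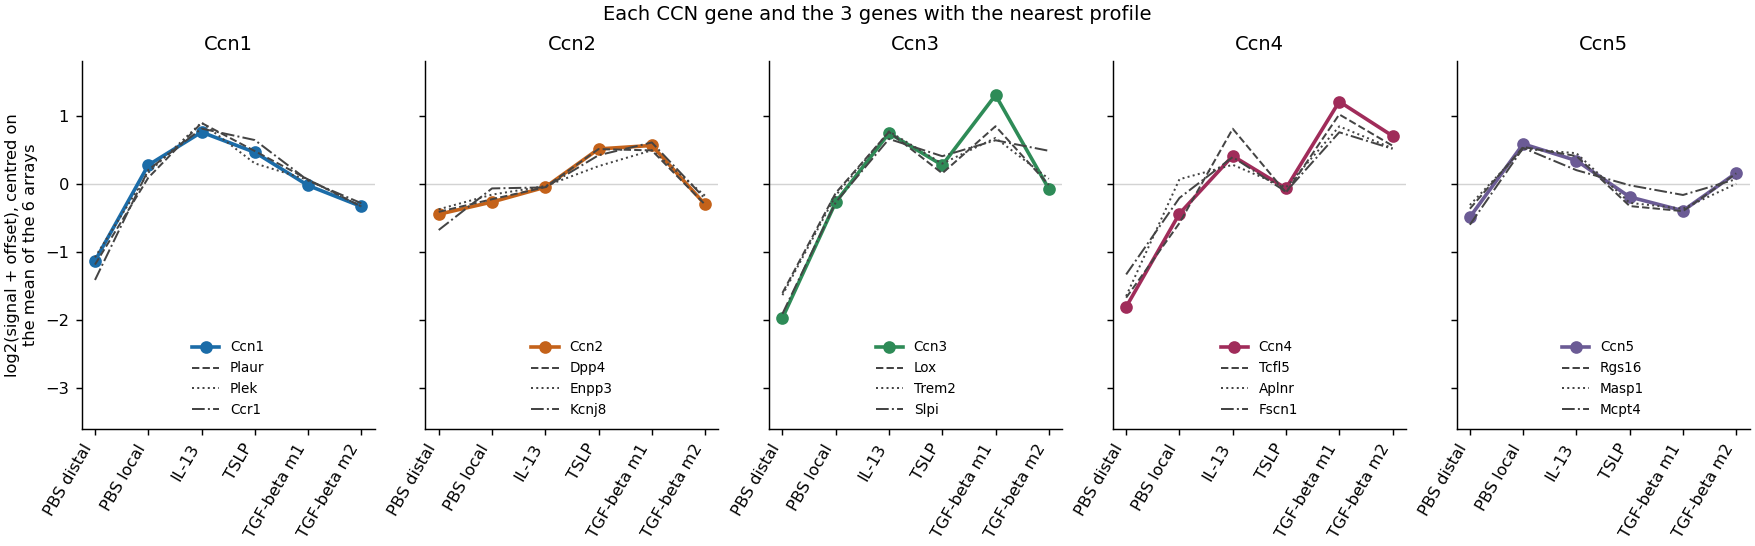
Profiles over the 6 arrays, in log2(signal + 27.4) centred on each gene's mean, of each CCN gene (coloured line) and of the 3 genes with the nearest profile (dark lines). The lines of Ccn3 and Ccn4 lie at -1.97 and -1.81 in PBS distal skin and peak in TGF-beta mouse 1 (m1), while Ccn1 and its neighbours peak under IL-13.

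Likeness of profiles was measured as the root mean square (RMS) difference between centred log2 values over the same 6 arrays, among 7944 other genes. Ccn3 and Ccn4 were the closest pair within the family, at an RMS difference of 0.39. Ccn4 was the 5th nearest gene to Ccn3, and Ccn3 the 7th nearest to Ccn4. The other 9 pairs lay between 0.50 and 1.02 apart. For scale, the median over all genes was 1.05 from Ccn3 and 0.99 from Ccn4.

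The gene nearest to Ccn3 was Lox, the lysyl oxidase that crosslinks collagen and elastin, at 0.25, then Trem2, a myeloid receptor, at 0.30 and Slpi, a protease inhibitor, at 0.36. Lox had signals of 878 in PBS distal, 2476 in PBS local, 2690 in TGF-beta mouse 2, 3030 under TSLP, 4630 under IL-13 and 4908 in mouse 1, the same order of arrays as Ccn3. Nearest to Ccn4 were Tcfl5, a transcription factor, at 0.21, Aplnr, the apelin receptor, at 0.28 and Fscn1, the actin bundler fascin, at 0.29. Tcfl5 had signals of 24.0 in PBS distal, 82.4 in PBS local, 122 under TSLP, 259 under IL-13, 214 in TGF-beta mouse 2 and 304 in mouse 1. Like Ccn4 it lay below the filter on both PBS arrays.

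Ccn1 lay nearest to Plaur, the urokinase receptor, at 0.10, Plek, a leukocyte protein, at 0.11 and Ccr1, a chemokine receptor of leukocytes, at 0.15. Plaur had signals of 116 in PBS distal, 232 and 314 in TGF-beta mouse 2 and mouse 1, 321 in PBS local, 429 under TSLP and 580 under IL-13. Ccn2 lay nearest to Dpp4, a cell surface peptidase, at 0.04, with Enpp3 and Kcnj8 at 0.13 and 0.14. Ccn5 lay nearest to Rgs16, a regulator of G protein signalling, at 0.08, with Masp1, a complement protease, at 0.12 and Mcpt4, a mast cell protease, at 0.15. Likeness over 6 arrays is a description, and many genes lie close to the flatter profiles of Ccn2 and Ccn5.

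The genes around the family were read from 6 lists. In limma's test of TGF-beta against PBS local, 0 of 7741 genes (0%) had an adjusted p under 0.05, the smallest being 0.864, while 355 (4.59%) had an unadjusted p under 0.05. List genes that did not enter were not tested, none of those that did was called, so none is said to have risen or fallen, and no other comparison had a test. Unadjusted, 2 of the YAP and TEAD targets, 2 of the immediate early genes and 3 of the Wnt targets were under 0.05. Of 17 receptors and binding partners of CCN proteins 14 entered, 0 were 2-fold apart in any comparison, and the median for TGF-beta was -0.03 beside -0.05 for all genes. Fn1, the fibronectin gene, was at 0.78 and 0.12 in the TGF-beta mice, 0.81 under IL-13 and 0.56 under TSLP. The integrin gene Itgb1, with its protein a receptor subunit for Ccn1 and Ccn2, was at 0.37 and -0.38, 0.27 and -0.22 in the same order, and at -0.92 in distal skin.

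Of 19 Hippo and actin-SRF regulators 10 entered, with medians of -0.07 for TGF-beta, -0.11 for IL-13, -0.03 for TSLP and 0.03 for PBS distal. The coactivator genes Yap1 and Wwtr1 (TAZ) had mean differences of -0.19 and 0.11 under TGF-beta. Amot, a scaffold that binds YAP, was the 1 list gene at least 2-fold apart, at -1.29 in distal skin, and at -0.01 and -1.40 in the TGF-beta mice. Of 22 YAP and TEAD target genes other than CCN, 14 entered for TGF-beta and 13 for the others, with medians of -0.04, -0.14 (IL-13), 0.03 (TSLP) and -0.07 (distal). Ankrd1, whose start region is printed above, had signals of 4227 in PBS local, 3079 and 2431 in the TGF-beta mice, 3009 under IL-13, 421 under TSLP and 75.7 in PBS distal. It was thus low on the TSLP array, where Ccn1 and Ccn2 were not. Ankrd1 is also a stress gene of striated muscle, and 2 of the 6 regenerating muscle genes that entered were at least 2-fold lower under TSLP. The part of muscle in its value was not tested. Gadd45a, at -1.02 in distal skin, was the other target past the 2-fold mark.

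Some immediate early genes had differences of the same sign as Ccn1, and others did not. Of 17 genes on this list 14 entered for TGF-beta, with a median of -0.31 beside -0.05 for all genes, and 15 for IL-13, with 0.41 beside -0.07. For TSLP the median was 0.28 beside -0.01, and for distal skin -0.14, where Ccn1 was at -1.40. Fos had signals of 774 in PBS distal, 658 and 943 in the TGF-beta mice, 1461 in PBS local, 2534 under TSLP and 2576 under IL-13. Like Ccn1, Fos was lower in both TGF-beta mice and higher under IL-13 and TSLP than in PBS local. A pattern chosen after the values of Ccn1 were seen, both TGF-beta arrays below PBS local and IL-13 and TSLP above it, was met by 8 of the 15 list genes above the filter on any array. It was met by 289 of 7945 genes (3.64%), and not by Egr1, Egr2, Ier2, Atf3, Klf4, Klf6 and Myc of the list. The pattern goes by sign alone, and Junb met it with 0.02 under IL-13 and 0.01 under TSLP. Both pattern and list were chosen with values known, so this count supports nothing about the list. Fosb was the 1 entered gene of the list 2-fold higher under IL-13, at 1.51, and entered only through that array, and Atf3 the 1 list gene 2-fold lower in distal skin, at -1.06.

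Of 23 TGF-beta early response genes 18 entered for TGF-beta, with a median of 0.19. For each other comparison 17 entered, with medians of 0.09 for IL-13, -0.03 for TSLP and -0.09 for distal skin. Bambi, which encodes a decoy receptor for these ligands, was the 1 gene of this list 2-fold higher in both mice, at 1.07 and 2.41. Its signal was 84.3 in PBS local and 207 and 567 in the TGF-beta mice, so it entered only through the arrays where it was high. The direct SMAD targets Skil and Smad7 were at mean differences of 0.34 and 0.41, and Pmepa1 at 0.02, with -1.08 in distal skin. Of 14 Wnt and beta-catenin target genes other than Ccn4, 6 entered for TGF-beta with a median of 0.85, and 3 were 2-fold higher in both mice. Nkd2 entered only through mouse 2, with 215 against 101 in PBS local. Over all 12 with a probe set the median was 0.01 in mouse 1 and 0.59 in mouse 2, beside 0.55 and 1.18 over those that entered. The 3 genes 2-fold higher in both mice were Sfrp2, a secreted Wnt modulator (2.47 and 1.43), Sox4, a transcription factor (1.34 and 1.86), and Lgr5, a receptor of follicle stem cells (1.01 and 1.58). Sox4 and Sfrp2 were put on this list with earlier values of them known, so its count supports nothing about the list. Axin2, the usual reporter of this pathway, was at -0.42 in mouse 1 and -0.09 in mouse 2. Sfrp2 was also at 1.45 under IL-13 and 1.94 under TSLP. Hair follicle genes, whose summed signal was 102 in PBS local, 162 in mouse 1 and 35732 in mouse 2, were like Lgr5 and Sox4 highest in mouse 2, and their part in these values was not tested.

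**Figure D4:**
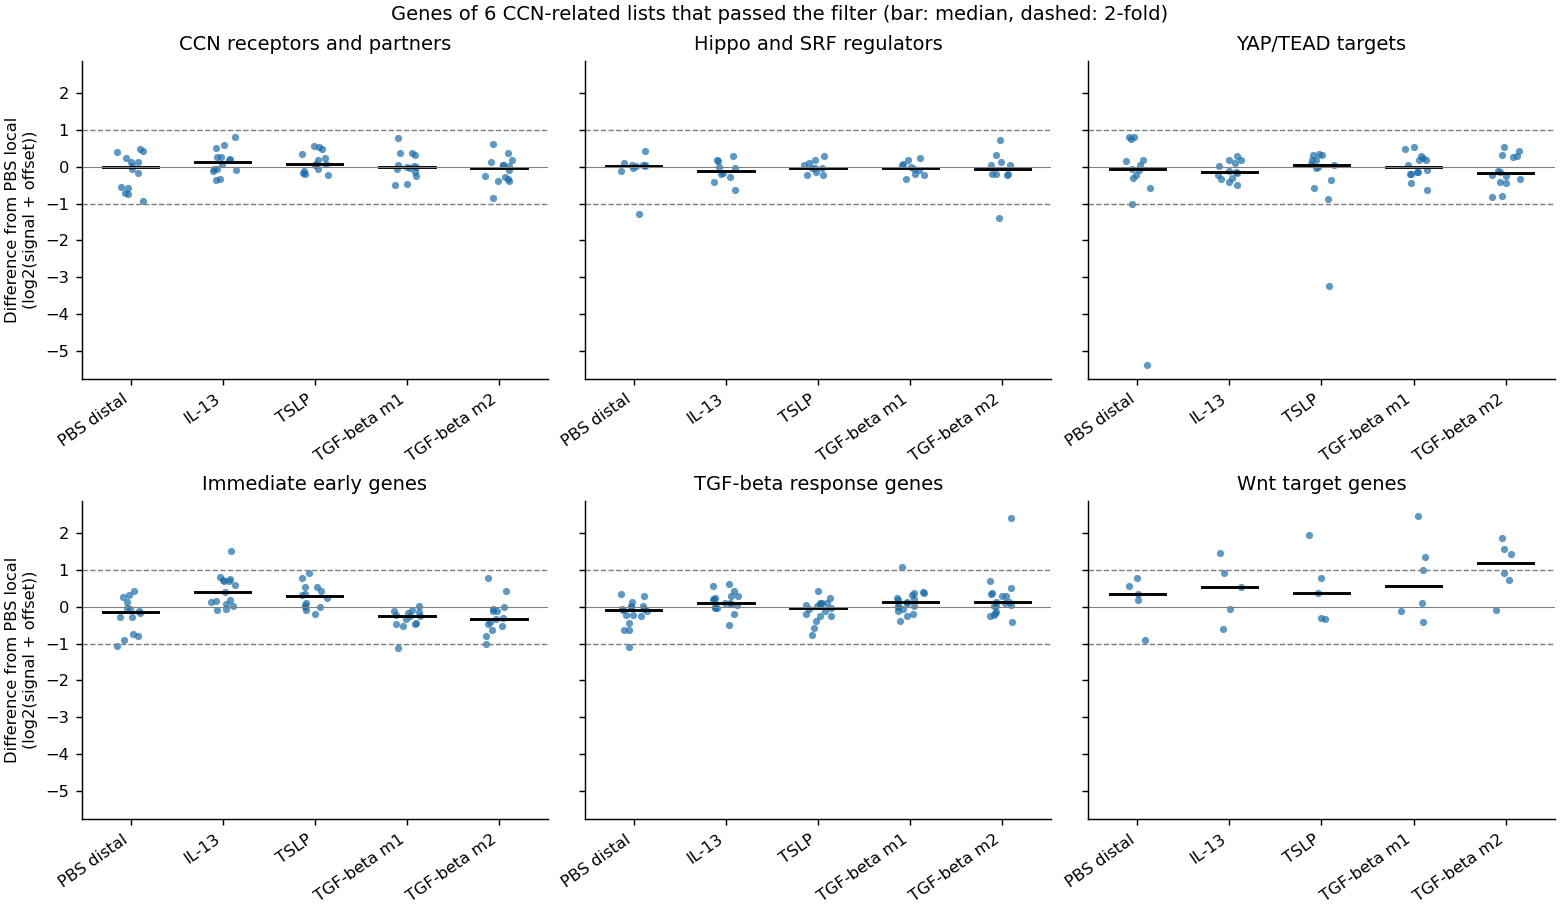
Difference from PBS local skin in log2(signal + 27.4) on 5 arrays for genes of 6 CCN-related lists that passed the filter in that comparison, 1 point a gene, with the median as a bar and dashed lines at 2-fold. The median bar of the immediate early genes lies at 0.41 under IL-13, 0.28 under TSLP, -0.24 in TGF-beta mouse 1 (m1) and -0.32 in mouse 2 (m2), and Ankrd1 is the lowest point among the YAP and TEAD targets, at -5.37 in PBS distal skin.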

How the data were processed

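Total RNA of 6 skin samples was measured on Affymetrix arrays. The authors' deposited intensity values came from MAS5, per the submitters' processing notes, with version and genome build not given in the sources used here. With 2% trimmed from either end, array means ran from 500.16 to 500.2, so the arrays were already on a common scale. They were set to 1 such mean, and log2(signal + 27.4) was taken, the offset being the 25th percentile of all values. Of 22690 probe sets, 64 were controls, 20380 named 1 gene, 691 several and 1555 were unnamed here. Gene numbers of 20351 matched a RefSeq table (GRCm38.p6), used for names. A gene was represented by its probe set of highest mean log2 value. A gene entered a comparison if 1 compared array reached 165.

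TGF-beta was tested against PBS local with limma 3.58.1 (R 4.3.3, lmFit and eBayes with an intensity trend, Benjamini-Hochberg), with 5 groups fitted to all 6 arrays. The 2 TGF-beta mice gave the 1 residual degree of freedom, beside 3.13 from the prior, and single arrays were assumed to vary like them. Nothing in the labels names a scan or batch. The test was checked on simulated data. Members and gene lists were chosen with earlier results of these data known, and the hair follicle, muscle and other marker lists likewise. The exocrine pancreas list was added after the arrays were seen. Named genes were all members, up to 4 genes a pathway list that were at least 2-fold apart in any comparison, and the 3 genes nearest in profile to a member. Fn1, Itgb1, Yap1, Wwtr1, Fos, Skil, Smad7 and Axin2 were named for their role after their values were seen. Figures were drawn with matplotlib 3.10.9. Alternatives changed the offset, filter, normalization, probe set rule, control array, mice, arrays fitted and trend. Of the columns with per-sample values, 0 were left unused.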

Additional observations from a re-analysis of the deposited data

How the results depend on the processing

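No paired analysis was possible because the labels number the mice of the TGF-beta group alone. Of the member comparisons past 2-fold, which numbered 5, 2 were left at 4 times the offset, where Ccn4 for TGF-beta (0.86 in mouse 2), Ccn3 under IL-13 (0.97) and Ccn5 in distal skin (-0.97) no longer passed. Ccn4 in distal skin, left out by the filter, was then at -0.77. Against PBS distal there were 8, and without each TGF-beta mouse in turn 5 to 6. Counts over all genes also rose with PBS distal as control, so the 8 is not particular to the family. For TGF-beta, 200 of 7774 genes were then higher, beside 14 of 7741 with PBS local. For IL-13 it was 352 of 7583 beside 85 of 7562, and for TSLP 385 of 7645 beside 76 of 7614. The members' differences were recomputed 130 times with PBS local kept as control, and 1 changed sign, Ccn2 for TGF-beta, at -0.04 without mouse 1. Without mouse 2, Ccn3 was at 1.57 for TGF-beta. Against PBS distal the differences of Ccn1 for TGF-beta (0.95) and of Ccn5 for TGF-beta (0.37), IL-13 (0.83) and TSLP (0.30) were above 0.

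Counts over all genes moved as well, and the cause was not tested beyond the setting itself. With the offset divided by 4, 29 genes were higher for TGF-beta and 47 lower for IL-13. At 4 times it, TGF-beta had 6 higher and 5 lower, IL-13 16 lower, TSLP 18 lower and distal skin 33 higher and 172 lower. Without the filter, 131 were higher for IL-13 and 101 in distal skin. With every compared array above the filter, TGF-beta had 8 higher and 6 lower, IL-13 44 higher, TSLP 48 higher and distal skin 38 higher and 137 lower. Against PBS distal, TGF-beta had 200 higher and 95 lower, IL-13 352 and 217 and TSLP 385 and 107, and limma then called 4 genes for TGF-beta, against 0 under the other 9 fits of it, where its smallest adjusted p ran from 0.102 to 0.899. Without one mouse, 27 to 143 genes were higher and 45 to 112 lower for TGF-beta. Quantile normalization and the mean of all probe sets moved no count by over 1.5 times.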
